A study of Mus musculus with 1183 samples.

Results

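Interferon-stimulated genes were described across the immune cells of the newborn mouse lung after hyperoxia (breathing of oxygen-rich air, which injures the developing lung). The set held 34 genes, picked by symbol from the 18072 rows of the count table. By role they were 2 interferon receptor subunits, 4 transcription factors, 4 sensors of foreign nucleic acid, 17 antiviral effectors, 2 genes of the ISG15 conjugation cycle and 5 other induced genes. All 34 were found in the table. The cells came from the distal lung of 1 female and 1 male mouse at postnatal day 7, both kept in hyperoxia, and each library was 1 cell sorted into a plate well. Of 1183 cells, 1173 were sorted for CD45, the common leukocyte antigen, and the other 10 came from plates sorted for mesenchyme or for CD31. The labels divide the cells into 16 subtypes and give neither strain nor genotype. Lungs of animals in room air were not analysed here, so every comparison is between subtypes and none measures an effect of oxygen.

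Type I interferons bind the receptor formed by Ifnar1 and Ifnar2, and the kinases on that receptor activate Stat2, which joins Irf9 in a complex. The complex binds a promoter element, the interferon-stimulated response element or ISRE, and switches on antiviral genes. Interferon gamma acts mainly at another element, the GAS site. Some of these genes are also kept at a low tonic level, or are driven by Irf1 and other factors, without strong interferon signalling.

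Promoter stretches of 5 antiviral members are shown because their ISRE motifs are what these genes have in common beyond the list. They are from RefSeq, assembly GRCm38.p6, read 5′ to 3′ on the strand of the gene, with matches to the ISRE core (GAAA, any 2 bases, GAAA) or its reverse complement in capitals.
Ifit1, chr19:34640770-34640829, plus strand: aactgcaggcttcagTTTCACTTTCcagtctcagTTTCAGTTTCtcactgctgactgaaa
Ifit3, chr19:34583365-34583424, plus strand: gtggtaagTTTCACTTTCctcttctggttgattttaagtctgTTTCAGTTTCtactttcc
Rsad2, chr12:26456538-26456597, minus strand: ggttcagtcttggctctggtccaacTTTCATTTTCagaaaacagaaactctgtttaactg
Oas1a, chr5:120907526-120907585, minus strand: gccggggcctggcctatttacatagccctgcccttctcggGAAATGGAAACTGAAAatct
Isg15, chr4:156200856-156200915, minus strand: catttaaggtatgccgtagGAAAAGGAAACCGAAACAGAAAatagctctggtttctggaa
Each stretch lies upstream of the annotated start. The Oas1a stretch runs from 60 bases before it to the base just before it, and the Ifit1 stretch ends 60 bases before it. In Isg15 3 overlapping matches form 1 run, and in Ifit3 both matches lie more than 100 bases upstream. Of the 34 members, 26 had a promoter entry (250 bases before to 50 bases after the start). The ISRE core, searched on both strands, was in 13 of these 26 (50%), against 1079 of all 27025 genes with a promoter entry (3.99%). Those 27025 are genes of the promoter reference and not the rows of the count table. The GAS motif TTCNNNGAA was in 9 of 26 (34.6%), among them Irf1, Ifnar1, Ifnar2 and Ifitm3, against 9.55% of the same 27025. Several members are neighbours on a chromosome, namely Rsad2 and Cmpk2, Ifit2 and Ifit3, Oasl1 and Oasl2, and Oas2 and Oas3.

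The cells held from 16753 to 7560179 reads, with a median of 1100966. Counts were summed per animal and labelled subtype and scaled to 1000000 reads of that sum (CPM). Paired levels below are the female value followed by the male value. CPM values were compared between subtypes for 1 gene and not between genes. Mac I had 1 cell and was left out, which left 15 subtypes with at least 5 cells per animal. Each sex is 1 animal, so sex and animal cannot be told apart. The labels were checked against 4 markers per subtype. All 4 lay above every other subtype in both animals for B cells, NK cells, neutrophils, mast cells, basophils, DC I, DC III and Mac IV, 3 of 4 for T cells, Mac III and Mac V, and 2 of 4 for IL cells and DC II. Mac III carried markers of alveolar macrophages (Siglecf, Marco), Mac IV complement C1q genes and Mac V monocyte genes (Plac8, Ace). How the subtype labels were made is not given in the sources used here, and labels that rest on expression in these same cells would make the calls below a description of the labelled classes.

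Mac V and Mac IV held the most members and Mac III, the largest subtype, among the fewest. At least 20 CPM in both animals was reached by 23 of 34 members in Mac V, 19 in Mac IV, 13 each in neutrophils, T cells and DC II, 8 in Mac III and basophils, and 4 in IL cells. The median member stood at 62.9 CPM in Mac V, 38.5 in Mac IV and 23 in neutrophils, against 1.91 in Mac III and 0.190 in basophils. Over all 15 subtypes 29 members reached a mean of 20 CPM somewhere. The 5 that did not were Ifit1, Rsad2, Mx2, Ifi44 and Isg15, the last with a highest mean of 6.18 CPM, in Mac V. Isg15 encodes the ubiquitin-like modifier of the response. Reads of genes with close copies (Isg15, Ifit3 with Ifit3b, Oas1a with Oas1g, Trim30a with Trim30d) may have been split or dropped in counting, so their levels are uncertain.

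**Figure D1:**
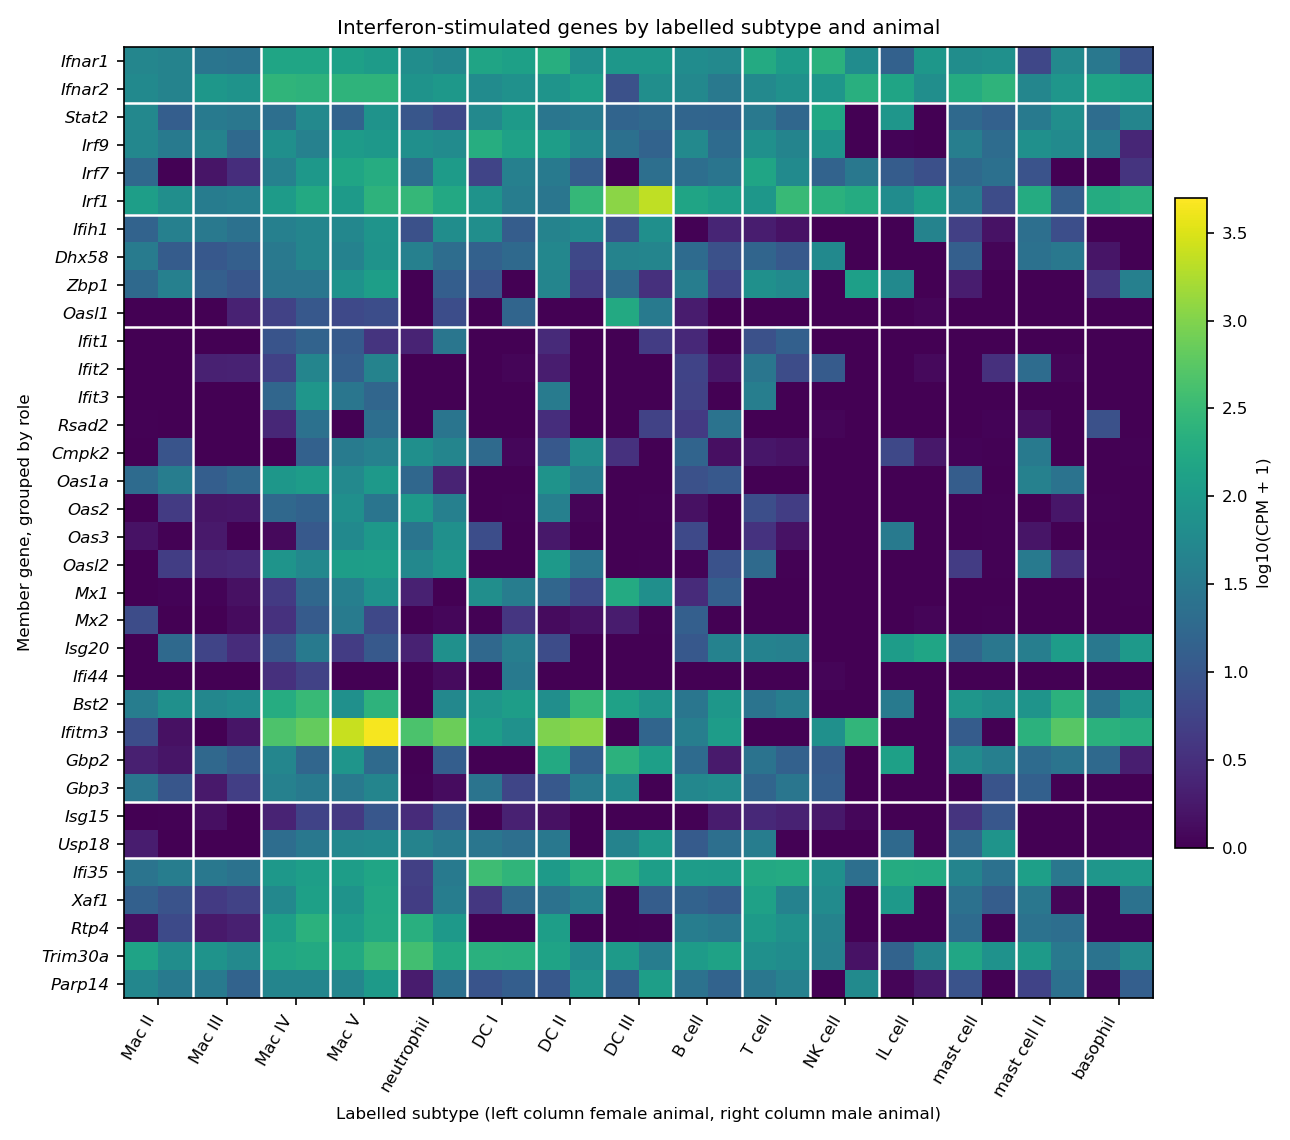
Level of each of the 34 members in 15 labelled subtypes, as log10(CPM + 1), with the female animal in the left and the male animal in the right column of each subtype. Mac IV and Mac V are filled over most rows, Mac III and basophils over few, and Irf1 is brightest in DC III and Ifitm3 in Mac V.

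Among 10 subtypes with at least 15 cells per animal, 19 of 34 members differed somewhere in the edgeR quasi-likelihood F test (Benjamini-Hochberg adjusted p under 0.05 over all genes), beside 28.5% of the 15379 genes tested. All adjusted p given here are Benjamini-Hochberg values of the edgeR test over all genes, and ± after a fold change is its SE. The receptor subunit Ifnar2 had the lowest adjusted p of the members (4.87e-04), followed by Ifitm3 (0.00138) and Rtp4 (0.00396). The factors Stat2 and Irf9 (adjusted p 0.234 and 0.183) and the effector Bst2 (0.62) were not called. Fewer members were called without the female or without the male Mac III library. Cells of the sequencing run shared by both animals gave 8, and the share of all genes called in these fits is not given here.

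The receptor genes were found in most subtypes. Ifnar2 reached 20 CPM in both animals in 14 of 15 subtypes and Ifnar1 in 12, as did Ifi35 in 14, Irf1 and Trim30a in 13 and Bst2 in 12. Ifnar2 stood at 250.8 and 257.6 CPM in Mac V, at 260.6 and 245.4 in Mac IV, at 187.2 and 256.4 in mast cells, and at 90.2 and 78.8 in Mac III. Mac IV and Mac V did not differ beyond their spread, and both lay above Mac III in each animal. Ifnar1 stood at 147.9 and 146.9 CPM in Mac IV and at 26.1 and 24.7 in Mac III.

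Among the transcription factors Irf7, which amplifies the response, had a mean of 171.2 ± 32.3 CPM (SD, n = 2) in Mac V and was at 41.2 and 94.3 CPM in Mac IV and 0.631 and 2.09 in Mac III. Mac V lay above Mac IV in both animals, and Mac III far below. T cells followed Mac V with a mean of 104.1 ± 64 CPM (SD, n = 2), a spread too wide to set them apart from Mac IV or neutrophils. A single female cell held 57.3% of the T cell reads of Irf7. Irf9 was highest in DC I, at 203.3 and 129.4 CPM.

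Ifitm3, a membrane protein that blocks entry of viruses, was highest in Mac V. Its level was 2424 and 4441 CPM in Mac V, 463 and 666 in Mac IV, 448 and 741 in neutrophils, and 0.0239 and 0.633 in Mac III. Next to Mac V came DC II, at 968 and 1132 CPM. T cells and IL cells had 0 reads in both animals. The 2 animals of Mac V both exceeded every other subtype, while Mac IV and neutrophils overlapped.

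In 9 members the subtype highest by mean had both animals above both animals of the subtype next by mean. They were Ifitm3, Zbp1 and Oasl2 in Mac V, Irf1 and Oasl1 in DC III, Irf9 and Ifi35 in DC I, Cmpk2 in neutrophils and Gbp3 in B cells. Cmpk2, a mitochondrial nucleotide kinase, was at 68.1 and 48 CPM in neutrophils against 33.8 and 41.4 in Mac V. Ifi35 was at 353.9 and 263.4 CPM in DC I. In the other 25 members the first 2 subtypes by mean overlapped. Subtypes ranked lower still overlapped the leads of Zbp1, Cmpk2 and Gbp3. Gbp3 was at 59.2 CPM in the female DC III against 50 and 59.8 in B cells. Zbp1 had a mean of 60.3 ± 85.2 CPM (SD, n = 2) in NK cells, and Cmpk2 of 37.4 ± 39.3 in DC II.

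**Figure D2:**
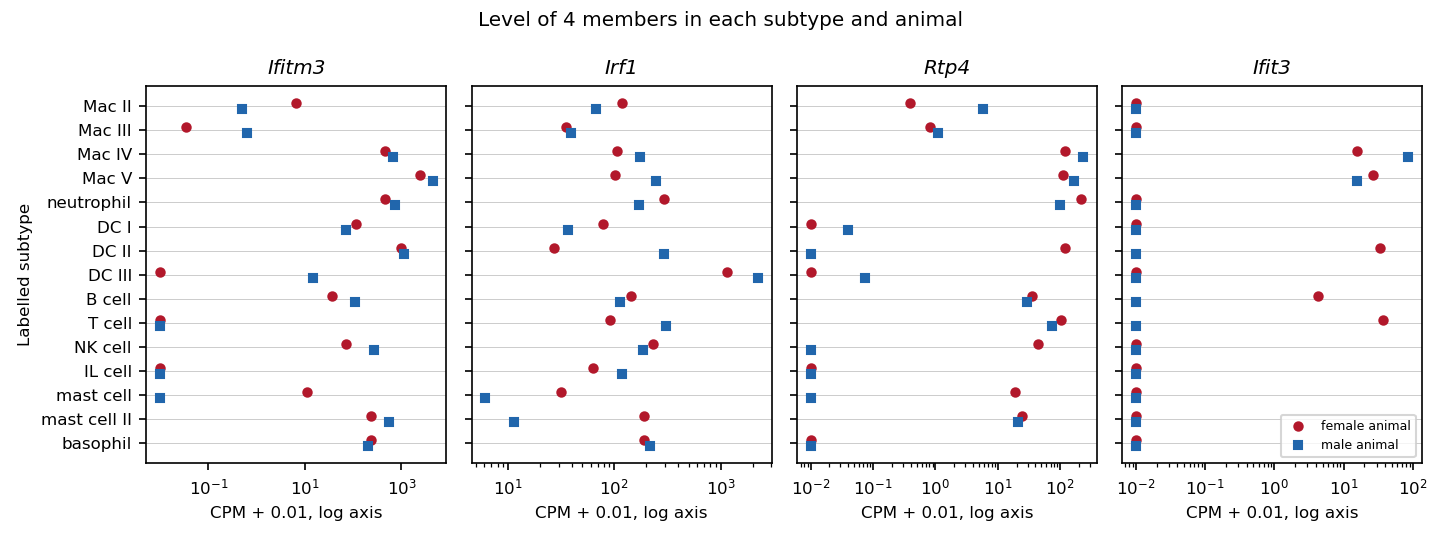
CPM + 0.01 of Ifitm3, Irf1, Rtp4 and Ifit3 on log axes in each of 15 subtypes, with circles for the female and squares for the male animal. Ifitm3 peaks in Mac V and Irf1 in DC III, Rtp4 is about equal in Mac IV, Mac V and neutrophils, and Ifit3 is at 0 in most subtypes, drawn at the left edge.

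The members lay above their Mac III level in Mac V. Both animals of Mac V lay above both of Mac III for 30 of 34 members and below for 0, beside 22.3% of all genes above and 35.9% below. All 34 fitted log2 fold changes were above 0, with a median of 3.72 against -0.13 over all genes tested. Without the male Mac V library 31 were above 0 (median 3.07), and 33 without the female Mac III or with the shared run. The spread between animals was large, and edgeR called 2 members higher and 0 lower (0.904% and 0.436% of all genes). Ifitm3 was higher by a log2 fold change of 13.38 ± 2.56 (SE, adjusted p = 0.0191). Usp18, which strips Isg15 from proteins and dampens the receptor, was at 50.8 and 55.5 CPM against 0.00956 and 0.0170 (11.82 ± 2.75, adjusted p = 0.0499). Not called were Rtp4, at 111.8 and 168.9 CPM against 0.803 and 1.10, Oasl2, at 111.9 and 119.2 against 1.42 and 1.65, and Mx1, at 39 and 74.9 against 0.1 and 0.467. Leaving out 1 of the 4 libraries ended both calls, with adjusted p for Ifitm3 of 0.187 without the female and 0.103 without the male Mac III, and 0.0512 and 0.0611 without the female and male Mac V. For Usp18 these were 0.431, 0.424, 0.128 and 0.130 in the same order. Usp18 was also not called with the animal as a block (0.0622), with RLE size factors (0.0514), with all 15 subtypes (0.232) or with the shared run (0.160). DESeq2 and the fit of these subtypes alone each called 18 members, all higher in Mac V, where they called 4.05% and 5.25% of all genes higher.

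Of the wider pathway, 10 of 64 tested other induced genes and 1 of 7 other receptors and kinases were called higher in Mac V than in Mac III, and none lower. Phf11b was at 113.3 and 140.9 CPM against 0.0143 and 0.0467, a log2 fold change of 11.98 ± 1.14 (adjusted p = 2.47e-04). Ifi209, of the interferon-inducible HIN family of DNA sensors, was at 106.7 and 295.5 CPM against 0.0860 and 0.0212 (adjusted p = 0.0295). Without 1 library Phf11b was called in 4 of 4 fits and Ifi209 in 0 of 4, with adjusted p of 0.219 without the female and 0.327 without the male Mac III, and 0.0677 and 0.101 without the female and male Mac V. Ifitm6, a paralog of Ifitm3, was at 824 and 989 CPM with 2 reads in Mac III (adjusted p = 0.00931), and lost its call without the female (0.161) or male (0.136) Mac III.

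Mac IV showed the same direction against Mac III. Both animals lay above for 29 of 34 members and below for 0 (28.2% and 30.5% of all genes), and all 34 fold changes were above 0, with a median of 3.69 against 0.00 over all genes. Without the male Mac IV library 31 were above 0 (median 2.5). The edgeR test called 0 members (0.754% of all genes were called). DESeq2 called 11 and the fit of these subtypes alone 18, all higher, beside 4.42% and 6.70% of all genes called higher. Ifit3, which binds viral RNA together with Ifit1, was at 15.9 and 86.3 CPM in Mac IV and had 0 reads in all Mac III cells, at least 7579-fold higher in Mac IV with Mac III set at 3 reads over the group (adjusted p = 0.285). Ifitm3 (log2 fold change 10.69 ± 2.34, adjusted p = 0.0563) and Usp18 (19.9 and 29.8 CPM, adjusted p = 0.0895) were near the threshold. Of the other induced genes 4 of 64 were called higher and 0 lower. Phf11b was at 31.4 and 32.7 CPM (9.89 ± 1.06, adjusted p = 9.37e-04), Ifitm6 at 27.3 and 23 (adjusted p = 0.0483) and Ifi205 at 141.8 and 7.64 against 0.0812 and 0.127 (adjusted p = 0.00735). Phf11b kept its call whichever library was left out, and missed it (0.0507) in the fit of all 15 subtypes. Ifitm6 lost it in each case, with adjusted p of 0.484 and 0.427 without the female and male Mac III and 0.121 and 0.128 without the female and male Mac IV. Ifi205 lost it without the female (0.174) or male (0.164) Mac III.

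**Figure D3:**
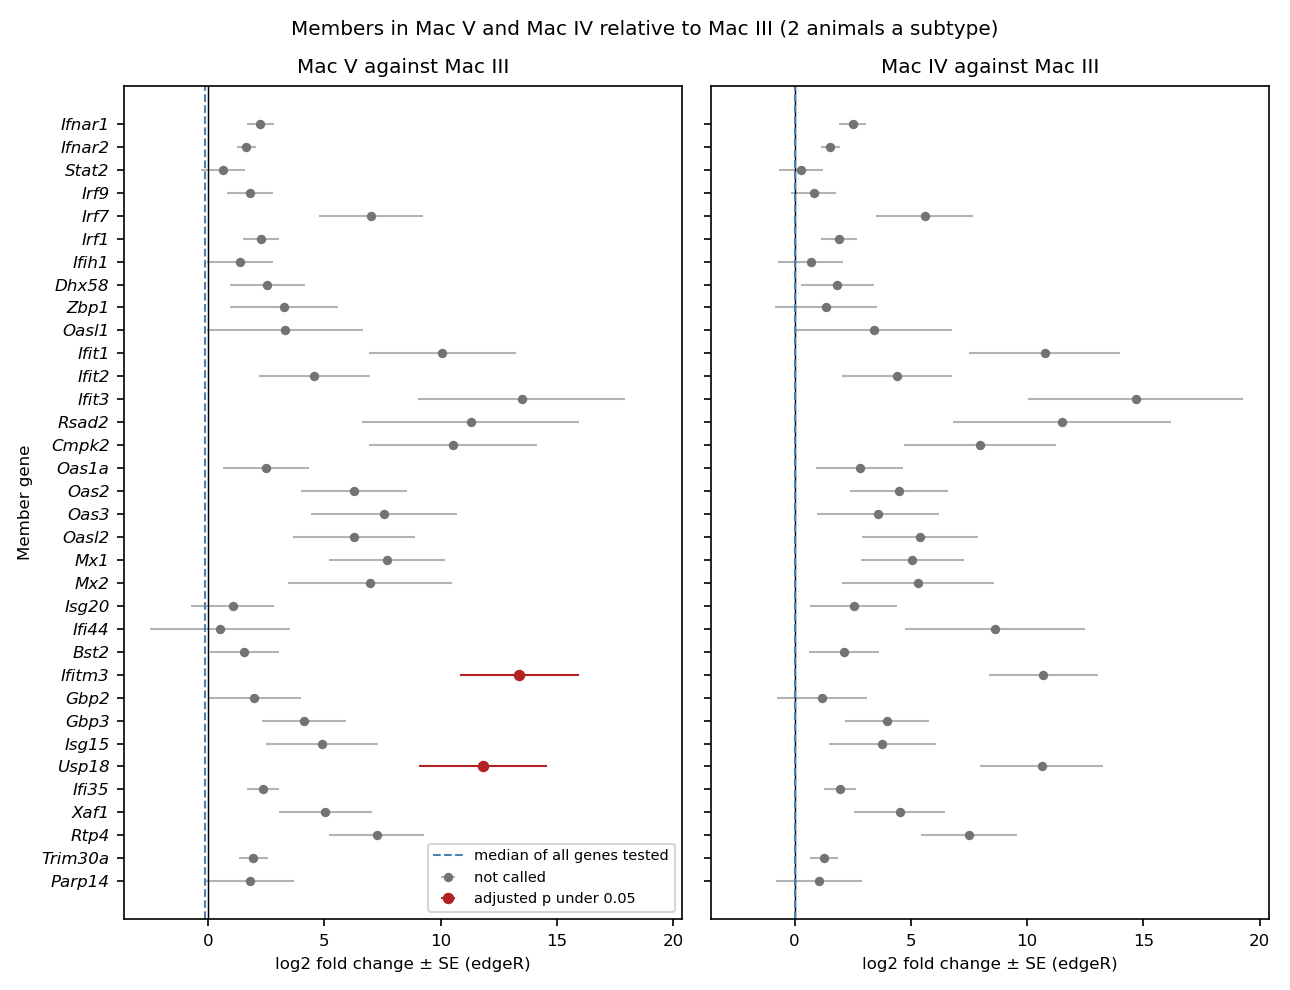
Log2 fold change ± SE of the 34 members in Mac V (left) and Mac IV (right) relative to Mac III from edgeR, with 2 animals a subtype. All points lie to the right of 0, the dashed line marks the median of all genes tested, and the 2 red points, Ifitm3 and Usp18 in Mac V, are the members called.

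Some Mac IV cells also held markers of lung tissue cells. The 4 endothelial markers summed to 523 and 113.7 CPM, with 0 of the 4 at 0, against 1.70 and 2.20 in Mac III and 47.9 and 23.1 in Mac V. The 4 mesenchymal markers summed to 47.8 and 39.2 CPM in Mac IV, and the 4 red cell markers to 8.72 and 2584. Without the 40 cells that held at least 2 such markers of epithelium, endothelium or mesenchyme (20 of them Mac IV), both animals of Mac IV still lay above Mac III for 29 members and those of Mac V for 30. On each of the 4 CD45 plates taken alone, Mac V was above Mac III for 25 members and Mac IV for 23, beside 12.4% and 17.3% of all genes, and neither was below for any on all 4 (25.7% and 22.7% of all genes).

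Between Mac V and Mac IV no member was called in the fit of 10 subtypes. Both animals of Mac V lay above both of Mac IV for 12 members and below for 2, beside 21.4% and 30.8% of all genes. The edgeR test called 0 (0.585% of all genes were called), with 0 at an unadjusted p under 0.05, and DESeq2 also called 0. The median log2 fold change was 0.60 against -0.07 over all genes. The largest differences among members at 20 CPM or more were Oas3, an enzyme that activates RNase L, at 56.2 and 93.9 CPM in Mac V against 0.241 and 9.73 (log2 fold change 3.97 ± 2.66, adjusted p = 0.55), Ifitm3 (2.69 ± 1.65, adjusted p = 0.49, and 0.0298 in the fit of these subtypes alone) and Mx1 (2.63 ± 1.98, adjusted p = 0.62). Below Mac IV in both animals were Ifnar1 and Ifi44. Of the wider pathway 1 gene was called, Samhd1, at 1137 and 1087 CPM against 277.1 and 137.6 (adjusted p = 0.0292). Its call was lost whichever of the 4 libraries was left out, with adjusted p of 0.203 and 0.169 without the female and male Mac V and 0.125 and 0.325 without the female and male Mac IV.

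Neutrophils lay below Mac V for 21 members and above for 1, Cmpk2, beside 31.5% and 16.3% of all genes. The edgeR test called 0 (1.32% of all genes were called), and DESeq2 called 6, all lower in neutrophils, beside 15.3% of all genes called in either direction. The median log2 fold change was -0.58 against 0.00. Neutrophils had 0 reads of Ifit2 and of Ifit3 in both animals, against 12.1 and 43.8 CPM and 27 and 15.8 CPM in Mac V, at least 882-fold and 675-fold lower (adjusted p = 0.107 and 0.229). The Ifit2 bound rests on few Mac V cells, since 1 cell held 84.2% of the female and 1 cell all of the male Mac V reads, and Mac V had 0 Ifit2 reads on the second plate of both animals. Gbp3, a guanylate-binding GTPase, was at 0.0474 and 0.343 CPM against 29.9 and 47.7 (adjusted p = 0.117). Of the other induced genes 4 of 64 were called lower and 0 higher. They were Phf11b, with 0 reads in neutrophils (adjusted p = 4.32e-04), Ifi205 (0.00924), Mndal (0.0136) and Ly6e (0.0169). Without 1 library Phf11b was called in 4 of 4 fits, Ifi205 lost its call without the female neutrophils (0.0552) and Mndal without the male Mac V (0.0785). Member levels in neutrophils were uneven, between the animals and between plates of 1 animal. Of 22 members at 20 CPM in either animal, 9 were over 4-fold apart between the animals, all 9 higher in the male. The count was 0 of 10 in Mac III, 3 of 25 in Mac IV and 4 of 29 in Mac V. No share over all genes was taken for these counts. In subtypes of few cells the share was also high, such as 11 of 24 in DC II, 8 of 14 in NK cells and 8 of 13 in IL cells. An example in neutrophils is Isg20 at 1.28 and 70.6 CPM. Between plates of 1 animal, neutrophil Usp18 was at 96.8 and 0.0448 CPM in the female, and Irf7 at 185.4 and 29.7 in the male. The endothelial markers summed to 21.4 and 581 CPM in neutrophils and the red cell markers to 31.6 and 6102, and the part of these cells in the difference was not tested.

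In lymphocytes the members split. Both animals of B cells lay above T cells for 7 members and below for 13, beside 21.4% and 14.3% of all genes. The edgeR test called 0 (0.429% of all genes were called), and DESeq2 called 8, beside 9.94% of all genes. The median log2 fold change was -0.79 against 0.00 over all genes. Without the female T cells it was 0.09, and without any other library it lay from -0.78 to -0.61. Ifitm3 was at 37.2 and 108.2 CPM in B cells and had 0 reads in T cells, at least 1479-fold higher in B cells (adjusted p = 0.0689). Its B cell reads lay in 6 of 65 cells. The effectors Rsad2, Oas1a, Mx1 and Mx2 also had 0 reads in T cells. Both T cell animals lay above B cells for Xaf1, a regulator of cell death, at 131.3 and 42.3 CPM against 13.8 and 10.8, a log2 fold change of -2.97 ± 1.82 (adjusted p = 0.568), and for Irf7, at 149.4 and 58.8 against 21 and 26.2 (-2.29 ± 1.79, adjusted p = 0.729). The Irf7 level of T cells rests largely on the 1 female cell named above.

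Between mast cells and basophils the members went in both directions, without overlap of the animals at shares near those of all genes. Both animals of mast cells lay above for 10 of 34 members and below for 6, beside 27.5% and 14.1% of all genes. The edgeR test called 3 higher and 1 lower (3.15% and 2.09% of all genes). The median log2 fold change was 0.54 against 0.17 over all genes. Leaving out 1 library moved it from 0.00 (without the female mast cells) to 1.72 (without the female basophils). Irf1 was at 31.5 and 6.13 CPM in mast cells against 189.7 and 218.9 in basophils (log2 fold change -3.65 ± 0.83, adjusted p = 0.021). Usp18 was at 16.8 and 80.4 CPM in mast cells with 3 reads in basophils (adjusted p = 0.0475). Gbp3 and Rtp4, called higher in mast cells, had means of 4.04 and 9.34 CPM there and 0 reads in basophils, and all Rtp4 reads came from the female. The Irf1 call was lost without the male basophils (0.0679) or the male mast cells (0.121) and without each gene's top cell (0.0827; 1 male basophil held 29.8% of the reads), and the Usp18 call without the female or male basophils (0.165 and 0.166) or the female or male mast cells (0.0630 and 0.133). Fits with all 15 subtypes, with these subtypes alone and with the shared run called 0 members, and the fit with the animal as a block called 1, Irf1. Of the pathway lists, 2 of 64 other induced genes were called higher in mast cells and 4 lower, 0 and 2 of 7 receptors and kinases, 1 and 0 of 13 sensors, and 0 and 1 of 6 feedback inhibitors. The kinases Jak1 and Jak2 were lower in mast cells, Jak2 at 5.76 and 18.2 CPM against 242.2 and 222.5 (-4.47 ± 0.78, adjusted p = 0.00405). Slfn2 was at 1.93 and 5.88 CPM against 511 and 477 (adjusted p = 3.06e-05) and Lgals3bp at 0.388 and 0 against 90.3 and 104.6 (adjusted p = 0.0389). Jak2 and Slfn2 kept their calls whichever library was left out, and Lgals3bp was lost without the male basophils (0.0850) or the female or male mast cells (0.0873 and 0.180).

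DC III, dendritic cells with the migratory markers Ccr7 and Fscn1, held the highest Irf1 level. Irf1, a factor that also responds to interferon gamma and to NF-kB, was at 1144 and 2242 CPM. In DC I it was at 78 and 36.6 and in DC II at 27.4 and 293.5, so DC III lay above both in each animal (log2 fold change 4.51 ± 0.88 against their mean, edgeR adjusted p = 0.00362). The call held whichever of the 6 libraries was left out (highest adjusted p 0.0337) and in 9 of 9 other settings. Irf1 was found in 10 of 11 female and 10 of 11 male DC III cells, and its top cell held 18.4% of the reads. Oasl1, a relative of the OAS enzymes that represses Irf7 translation, was at 176.3 and 31.2 CPM in DC III and at most 14.9 in any other library. Mx1 was at 183.9 and 68.2 CPM.

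Above the average of DC I and DC II in both animals were Irf1, Oasl1, Mx1, Gbp2, Usp18 (44.4 and 96.7 CPM) and Dhx58 (43.5 and 47.5 CPM). For Dhx58 and Gbp2 the female DC II alone lay above a DC III animal. Ifit2, Ifit3, Oas1a, Oas3, Isg20, Ifi44 and Isg15 had 0 reads in both DC III animals. Both animals lay above the averages of DC I with DC II for 6 members and below for 15, beside 10.8% and 36.6% of all genes, and the median log2 fold change was -0.67 against -0.41. The test called 2 members higher and 0 lower (2.79% and 4.43% of all genes). The other was Gbp2, at 237.1 and 122.6 CPM in DC III, 0 and 0 in DC I and 174.5 and 12.7 in DC II (8.76 ± 2.54, adjusted p = 0.0412). Its fold change rests on the 0 reads of DC I, and the female DC II lay above the male DC III. The Gbp2 call was lost whichever of the 6 libraries was left out, at adjusted p of 0.0997 and 0.0649 without the female and male DC III, 0.151 and 0.152 without those of DC I, and 0.0963 and 0.143 without those of DC II. It held in 7 of 9 other settings, and was lost with cells of the shared run and without cells holding tissue markers (highest adjusted p 0.0617). The 4 epithelial markers summed to 60.2 and 10792 CPM in DC I, where 4 of 40 cells held at least 2 of them at 50 CPM. Without cells holding tissue markers 1 member was called, Irf1.

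Related guanylate-binding genes were also called higher in DC III. Of 64 tested other induced genes 4 were called higher and 6 lower. Gbp4 had a mean of 238.9 CPM, with both animals above a DC I and DC II average of 0.455 and 17.4 (adjusted p = 0.0302). Gbp5 was at 14.3 and 80.1 against 0.114 and 0 (0.00955). Ifi27 was at 21 and 121.2 against 7.66 and 41.6 (log2 fold change 8.08, adjusted p = 4.64e-04), where the animals overlapped. The fold change averages DC I and DC II on the log scale, so 1 low class can make it larger than these averaged levels. The level of Ifi27 in each class is not given here. Lower were Lgals9, at 0 and 0.0639 against 149.8 and 108.6 (2.43e-06), Ifitm6 (0.0148) and Eif2ak2 (0.00611), the kinase that stops translation on viral RNA, both with 0 reads in DC III. Leaving out 1 of 6 libraries kept Ifi27 and Lgals9 in 6 fits, Ifitm6 and Eif2ak2 in 4, Gbp5 in 3 and Gbp4 in 1. Ifitm6 was lost without the female (0.0942) or male (0.0863) DC III and Eif2ak2 likewise (0.0550 and 0.0513). Gbp5 was lost without the female or male DC I (0.0595 and 0.0610) or the male DC II (0.0521). Gbp4 was kept without the male DC III (0.0490) and reached 0.0867 without the female DC III, 0.147 and 0.119 without those of DC I, and 0.123 and 0.0708 without those of DC II.

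Few interferon genes could be read. Of 20 listed ligands 3 were in the table. Ifnz was at 1.42 CPM in the female basophils and at 0 in the other 29 libraries, and Ifnk was at most 13.3 CPM, in the female Mac II. Ifng, the gene of interferon gamma, was at 1139 and 262.8 CPM in NK cells, 14.5 and 40.1 in B cells and 0 in T cells. The NK cells were only 5 female and 7 male cells. Of 65 B cells, 7 held at least 2 T cell markers at 50 CPM and 1 at least 2 NK cell markers. Whether those cells held the Ifng reads was not tested.

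Cell by cell, most members were found in a minority of cells at the cutoff used. To compare cells of unequal depth each was thinned at random to 100000 reads, and a gene counted as found with at least 5 of them. This cutoff stands at 50 CPM in a cell, so a gene spread evenly below it is missed in most cells. No share over all genes of like level was taken. The 5 shallower cells were left out. Ifitm3 was found in 66 of 66 female and 43 of 44 male Mac V cells, and in 0% and 0.481% of Mac III cells. In Mac IV it was found in 57.1% and 57% of cells and in neutrophils in 45.5% and 56.4%. The gene was thus found in nearly all Mac V cells, at uneven levels (the top cell was at 14187 CPM and the median of cells at 50 CPM or more was 2763), and in part of the Mac IV cells.

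Other Mac V members were less widespread. Irf7 was found in 43.9% of female and 38.6% of male Mac V cells, Rtp4 in 21.2% and 31.8%, and Usp18 in 10.6% and 13.6%. Ifit3 was found in 7.58% and 6.82%, and Ifit1 and Ifit2 each in 2 female cells and 1 male cell. In Mac IV Ifnar2 was found in 84.1% and 77.2%, Bst2 (tetherin) in 66.7% and 67.1%, Rtp4 in 41.3% and 51.9%, and Ifit3 in 7.94% and 16.5%. The animals gave the same order in each of these.

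Most members had at least 1 subtype in which 1 cell supplied most of the reads. A member and subtype pair was called led by 1 cell where over 50% of its reads came from that cell, among pairs at 5 CPM or more. This held for 93 pairs, with the highest shares in the smallest subtypes, 15 of 17 in NK cells and 11 of 15 in IL cells. No share over all genes was taken for such pairs, so whether members stand out from other genes was not tested. In T cells it held for 8 of 23, in B cells for 8 of 24 and in mast cells for 6 of 18. It held for 0 of 14 in Mac III, 2 of 32 in Mac IV (Cmpk2 at 65.6% and Oas3 at 58.5%), 4 of 33 in Mac V (Rsad2 at 67.8%, Ifit1 at 66.8%, Ifit2 at 66.5% and Isg15 at 51.1%) and 5 of 27 in neutrophils. Other effectors were shared by many cells, such as Oas1a, Bst2 and Oasl2 in Mac IV, whose top cells held 8%, 5.78% and 10.3% of the reads. In T cells a female cell held 98% of the Ifit3 reads and a female cell 99.6% of the Usp18 reads. Ifitm3 was the opposite case, with 7.18% of its Mac V reads in the top cell. Without the top cell of each gene in each library, 33 members could be tested and all 33 fitted log2 fold changes against Mac III were still above 0 in Mac V and in Mac IV, with medians of 4.69 and 4.75.

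**Figure D4:**
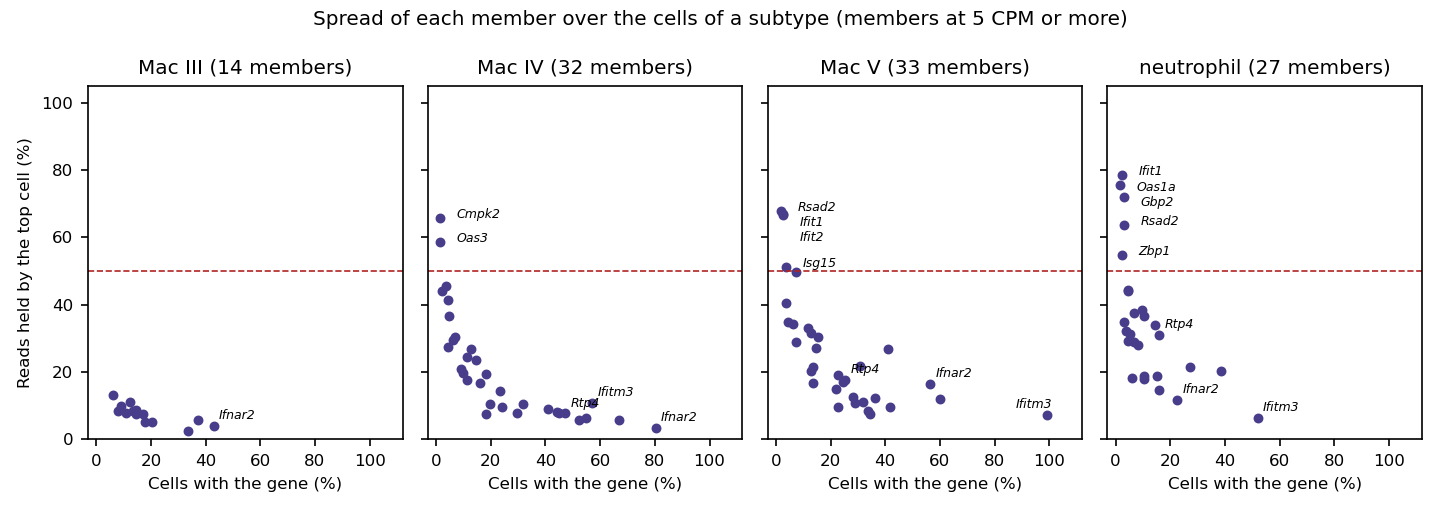
Share of a member's reads held by its top cell against the share of thinned cells in which it was found, in 4 subtypes, with 1 point per member at 5 CPM or more. Points above the dashed line at 50% are led by 1 cell, as Rsad2, Ifit1, Ifit2 and Isg15 in Mac V, while Ifitm3 and Ifnar2 lie low and to the right.

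Cells in which many classical members were found at once were rare at the same cutoff, and no like count was taken for other genes. Of 12 core genes (Ifit1, Ifit2, Ifit3, Isg15, Rsad2, Oasl1, Oasl2, Usp18, Ifi44, Cmpk2, Mx1 and Irf7), 882 of 1178 cells had none and 8 cells had at least 6 (0.679%, exact Clopper-Pearson 95% interval 0.294% to 1.33%). They were 3 Mac IV cells (2.11%), 3 Mac V cells (2.73%), 1 of 25 DC II cells and 1 of 46 T cells. No such cell was found in Mac III, which by the rule of 3 counts allows a share of up to 0.771% (exact upper bound 0.944%), or among neutrophils, which allows up to 2.26% (2.74%). The female contributed 5 of these cells and the male 3. Intervals and limits cover counting error only. A further 16 cells had 4 or 5 core genes, 7 of them Mac V and 4 Mac IV.

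The 8 cells carried from 14 to 28 of the 34 members at 5 reads. The cells with the most were both male Mac IV cells, with 11 and 10 core genes and 28 members each. All 8 held at least 2 markers of their own labelled subtype at 50 CPM. Of the 8, 1 female Mac IV cell also held endothelial, IL cell and Mac V markers, 1 female Mac V cell neutrophil markers and the T cell IL cell markers. Their depth within their subtype ran from percentile 8 to percentile 96.4. In Mac IV the 3 cells supplied 93.8% of the Oas3 reads, 89.8% of Cmpk2 and 52.8% of Ifit3, but 11.4% of Ifitm3 and 0.639% of Ifnar1. In Mac V the 3 cells supplied 94.7% of the Ifit2 reads, 67.4% of Ifit1 and 58.9% of Usp18, but 7.64% of Ifitm3 and 0 of the Gbp2 reads. The core genes chose these cells, so their shares of those genes are a description.

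**Figure D5:**
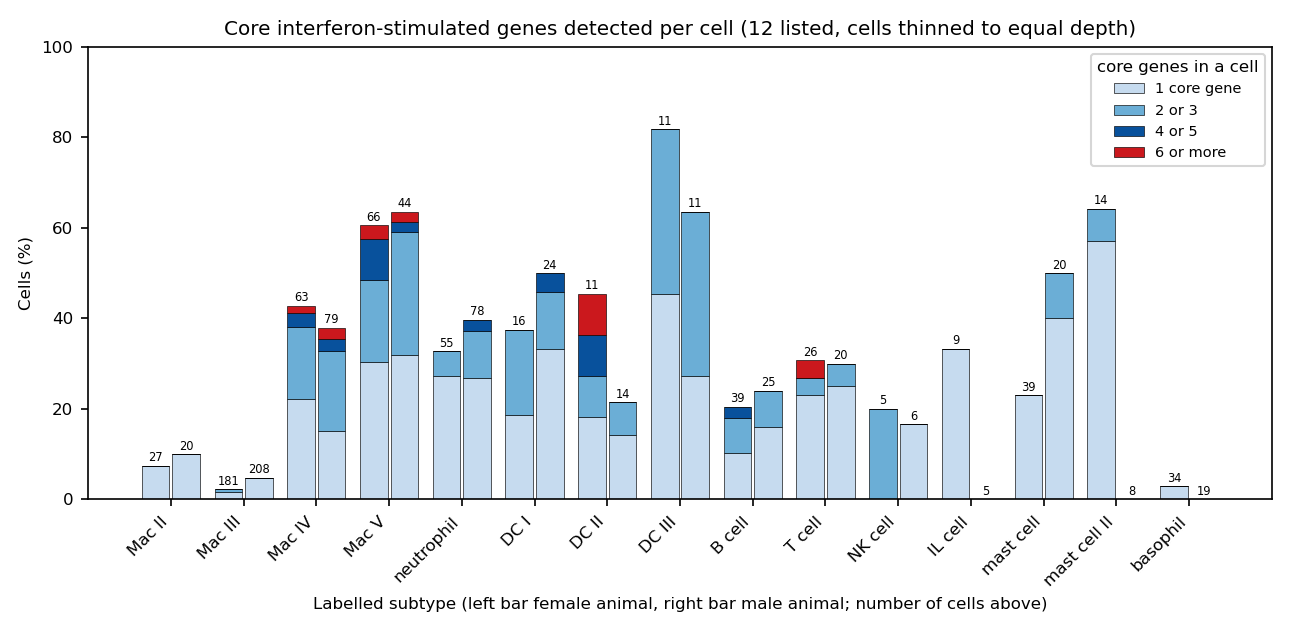
Share of thinned cells with 1, 2 or 3, 4 or 5, and 6 or more of the 12 core genes, by subtype and animal (left bar female, right bar male), with the number of cells above each bar. Cells with 6 or more appear in Mac IV and Mac V of both animals and in 1 animal of DC II and of T cells, and most DC III cells had 1 to 3.

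Lower numbers of core genes were more common. No core gene was found in 97.8% of female and 95.2% of male Mac III cells or in 97.1% and 100% of basophils, against 39.4% and 36.4% of Mac V, 57.1% and 62% of Mac IV and 67.3% and 60.3% of neutrophils. Mac IV and neutrophils, and Mac III and basophils, changed places between the animals. At least 2 core genes were found in 30.3% and 31.8% of Mac V, 20.6% and 22.8% of Mac IV, 5.45% and 12.8% of neutrophils and 0.552% and 0 of Mac III cells. In DC III 36.4% of cells in each animal had at least 2, but none had more than 2.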

How the data were processed

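Single sorted cells were sequenced with a plate method that uses Tn5 transposase, per the labels' protocols. The authors deposited a table of unnormalized counts, with 1 row per gene and 1 column per cell, beside a table of cell labels. The submitters' processing notes name STAR 2.5.2b, HTSeq 0.10 and the human build GRCh38, although the samples are labelled mouse, so no coordinates come from the study's files. The labels mention no molecular identifiers, so copies of 1 molecule may count as several reads.

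Counts were summed per animal and labelled subtype. The quasi-likelihood test of edgeR 4.0.16 (R 4.3.3, TMM, filterByExpr, threshold 0.05 after Benjamini-Hochberg adjustment over all genes) was fitted on 10 subtypes with at least 15 cells per animal (20 libraries, 15379 genes), and for DC III on 15 subtypes (30 libraries, 15600 genes). All 34 members passed the filter in both. The biological coefficients of variation were 1.05 and 1.15. Fold changes against a group with 1 to 3 reads depend on the prior count. Where a group had 0 reads, the bound uses 3 reads over the group. Setting such members at their bound left all 7 medians as printed. P-values set each difference against a spread estimated over all libraries of the fit, with 2 animals a subtype. That spread also holds the sampling of cells, the plate and the run.

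Members, lists and subtypes compared were chosen with earlier results of these data known. Members named in a comparison are up to 5 called per direction by fold change, at 20 CPM or more, or the 3 largest where none was called. From the pathway lists up to 3 called genes per direction are named. A few further values were chosen after they were seen: Rtp4, Oasl2, Mx1, Gbp3, Ly6e and Jak1. Same-numbered libraries come from the same animal, which pairs them. Their deviations correlated weakly over 10323 genes (45 subtype pairs, r from -0.03 to 0.16, median 0.07).
Alternatives were RLE size factors, other filters, DESeq2 1.42.0, other sets of libraries, the animal as a block, the shared run, no top cell, and, added after seeing the data, no cells with tissue markers.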

Additional observations from a re-analysis of the deposited data

How the results depend on the processing

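Counts of members called moved with the test and with the libraries in the fit, and the cause was not tested. For Mac V against Mac III (2 members) RLE size factors, all 15 subtypes and the shared run each gave 1, DESeq2 and the compared subtypes alone 18, and leaving out each gene's top cell 4. For Mac IV against Mac III (0) RLE and the 10 CPM filter gave 2, no filter 1, DESeq2 11, the compared subtypes alone 18 and no top cell 1. Mac V against Mac IV (0) gave 1 with the compared subtypes alone. Neutrophils against Mac V (0) gave 6 with DESeq2, 2 without the top cell and 1 without cells with tissue markers. B against T cells (0) gave 8 with DESeq2 and 1 each with the compared subtypes alone and without the top cell. Mast cells against basophils (4) gave 12 with DESeq2 (22.1% of all genes), 2 without the top cell and 0 with all 15 subtypes, the compared subtypes alone or the shared run. DC III (2) gave 8 with DESeq2 (which called 24.7% of all genes), 5 without the top cell, and 1 with the shared run or without cells with tissue markers. The shared run gave 8 members differing among subtypes, against 19, and its share of all genes is not given here.

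With the animal as a replicate block, Mac V and Mac IV against Mac III and mast cells against basophils each gave 1 member, and 17 members differed among subtypes. The block gave 0 for Mac V against Mac IV, neutrophils against Mac V and B against T cells, and 2 for DC III. Leaving out 1 library gave 0 for both comparisons with Mac III, for Mac V against Mac IV and for B against T cells, 0 to 2 for neutrophils, 1 to 3 for mast cells, 1 to 3 for DC III and 12 to 19 for the difference among subtypes; an arm left with 1 library is assumed to vary like the others. Of the named genes' other settings, 30 lost the call, 19 gained it and 0 reversed, and the rest kept their side of the threshold.

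Pairs led by 1 cell were 42 at 20 CPM, against 93 at 5 CPM. The 8 cells with many core genes became 24 with at least 4, 4 with at least 8 and 5 in the shared run. RLE moved the median of all genes by 0.15 (Mac IV against Mac III), -0.21 (Mac V against Mac IV), 0.15 (neutrophils) and 0.20 (DC III), and the share of higher calls from 31.5% to 43% for neutrophils. With 2 animals, a low count of calls says little about small differences.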
